A study of Bos taurus with 12 samples.

Results

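The genes of the replicative helicase subunits MCM2, MCM3, MCM4, MCM5, MCM6 and MCM7 and of the sliding clamp PCNA were followed in bovine endometrium by day of the estrous cycle and by receptivity. Every probe set was taken whose gene symbol in the platform annotation was one of these 7. This gave 8 of the 24016 probe sets tested, and they measure 6 of the 9155 genes with a named probe set. MCM4, MCM5, MCM7 and PCNA have 1 probe set each, MCM3 and MCM6 have 2 each, and none carried the symbol MCM2, so MCM2 is not described.

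Endometrium came from Simmental heifers, and total RNA was measured on Affymetrix bovine arrays with 1 RNA pool per array. The 12 pools form 4 groups of 3: receptive endometrium of day 7, receptive endometrium of day 3, non-receptive endometrium of day 7 and non-receptive endometrium of day 3. Receptivity refers to whether a pregnancy was obtained after transfer of embryos that had been produced in vivo, and no treatment is named for any group. The labels state neither the animals' age, nor how many heifers a pool holds, nor that pools of a group come from separate heifers, so p-values measure the spread between pools only, part of which may be technical.

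Before a cell can copy its DNA, the origin recognition complex, CDC6 and CDT1 load the ring of MCM2 to MCM7 onto origins, a step called licensing. The ring is later switched on by CDC45, the GINS proteins and kinases, and unwinds the double strand ahead of the polymerases. PCNA is a ring of another kind, loaded by replication factor C, that holds polymerases and many repair and chromatin assembly proteins on the DNA. These genes are transcribed most around the start of S phase under E2F factors, and PCNA is widely used to follow proliferation of epithelium and stroma in the uterus over the cycle.

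Values are log2 signals as the authors deposited them, in which a difference of 1 is a doubling. The signal of different probe sets depends on their probes, so changes are compared between genes and levels are not. The question of the first comparison was how transcripts of the helicase and the clamp differed between the later and the earlier day. By their brightest probe set, all 6 measured genes were lower on day 7 than on day 3, and their lowest pool of day 3 was above their highest pool of day 7. In the average of both receptivity groups the log2 changes lay between -1.61 for MCM4 and -0.88 for MCM7. Expressed as a share of the day 3 signal of the same probe set, day 7 signal was at 32.7% for MCM4, 40.9% for MCM3, 43.6% for MCM6, 49.7% for PCNA, 51.0% for MCM5 and 54.2% for MCM7. The other probe set of MCM3 was at 94.1%. In bulk tissue, fewer cells of a type and less RNA per cell cannot be told apart.

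**Figure D1:**
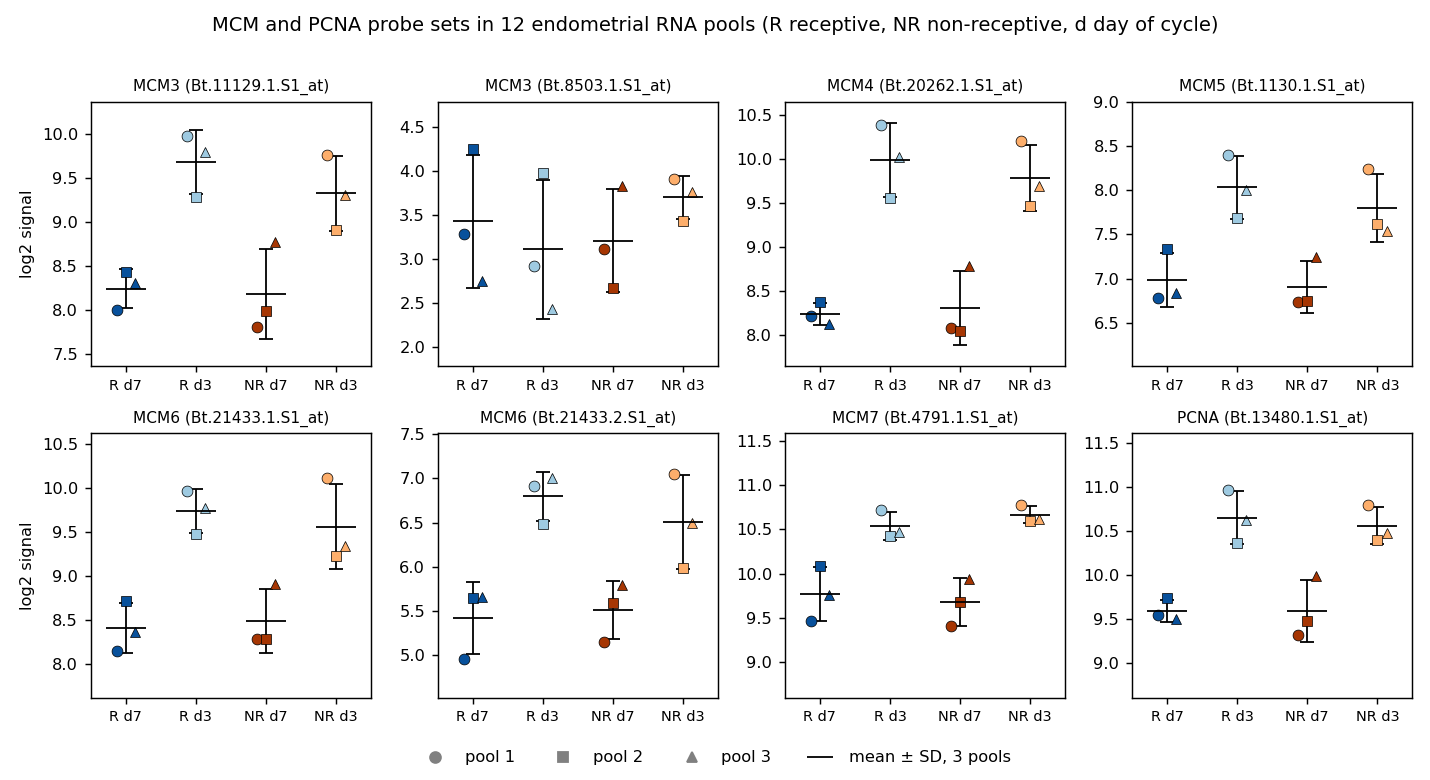
Log2 signal (y axis, a separate scale for each probe set) of the 8 MCM and PCNA probe sets in each of the 12 RNA pools, by receptivity and day of cycle (x axis). Symbols mark pool 1, 2 and 3, and lines give the mean and SD of 3 pools. In 7 probe sets all 6 pools of day 7 lie below all 6 pools of day 3. The exception is the dim MCM3 probe set, with values between 2.43 and 4.24 in both days.

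MCM4, MCM6 and MCM7 form the core of the helicase, a subcomplex that unwinds DNA by itself in vitro. MCM4 had 8.22, 8.38 and 8.13 in receptive pools of day 7, against 10.39, 9.56 and 10.02 in receptive pools of day 3. In non-receptive endometrium it had 8.09, 8.05 and 8.79 on day 7, against 10.20, 9.47 and 9.69 on day 3. Every pool of day 7 was below every pool of day 3, and the highest pool of day 7 was 0.68 below the lowest of day 3, the widest such gap of the 8 probe sets. The mean was 8.28 ± 0.28 on day 7 and 9.89 ± 0.37 on day 3 (SD, n = 6 each), a log2 change of -1.61 ± 0.19 (SE, limma adjusted p = 0.00212).

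MCM6 was measured by a bright and a dimmer probe set. The bright one had 8.15, 8.71 and 8.36 in receptive pools of day 7, against 9.96, 9.47 and 9.77 in receptive pools of day 3. In non-receptive endometrium it had 8.28, 8.28 and 8.91 on day 7, against 10.11, 9.22 and 9.34 on day 3. The days did not overlap, although pool 3 of non-receptive day 7 came within 0.31 of the lowest pool of day 3. The log2 change was -1.20 ± 0.19 (SE, limma adjusted p = 0.00554). The dimmer probe set, at 4.95 to 5.79 on day 7 and 5.98 to 7.05 on day 3, gave nearly the same change of -1.19 ± 0.21 (SE, limma adjusted p = 0.00811). Its values followed those of the bright probe set over the 12 pools with r = 0.964.

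MCM7 had 9.46, 10.08 and 9.76 in receptive pools of day 7, against 10.72, 10.43 and 10.47 in receptive pools of day 3. In non-receptive endometrium it had 9.40, 9.68 and 9.94 on day 7, against 10.78, 10.60 and 10.62 on day 3. The days did not overlap, and the pools of day 3 were close together, with an SD of 0.14 against 0.27 on day 7 (n = 6 each). The log2 change of -0.88 ± 0.13 (SE, limma adjusted p = 0.00411) was the smallest of the 6 genes by their brightest probe set.

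MCM3 and MCM5 are regulatory subunits that complete the helicase ring together with MCM2. The bright probe set of MCM3 had 8.0, 8.43 and 8.31 in receptive pools of day 7, against 9.98, 9.28 and 9.80 in receptive pools of day 3. In non-receptive endometrium it had 7.81, 7.99 and 8.77 on day 7, against 9.76, 8.91 and 9.31 on day 3. The days were separated by only 0.14, between pool 3 of non-receptive day 7 and pool 2 of non-receptive day 3. The log2 change was -1.29 ± 0.21 (SE, limma adjusted p = 0.0059).

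MCM5 had 6.78, 7.33 and 6.84 in receptive pools of day 7, against 8.40, 7.69 and 8.01 in receptive pools of day 3. In non-receptive endometrium it had 6.73, 6.74 and 7.25 on day 7, against 8.24, 7.62 and 7.54 on day 3. All pools of day 7 were below all of day 3, with a gap of 0.21. The log2 change was -0.97 ± 0.18 (SE, limma adjusted p = 0.00952).

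The probe sets of MCM3 disagreed. The dim one had 3.28, 4.24 and 2.75 in receptive pools of day 7, against 2.92, 3.97 and 2.43 in receptive pools of day 3, and in non-receptive endometrium 3.11, 2.67 and 3.83 on day 7, against 3.90, 3.43 and 3.76 on day 3. The days overlapped almost entirely, with a log2 difference of -0.09 (95% confidence interval -0.83 to 0.65, limma adjusted p = 0.89). Its mean signal was 3.36, at percentile 9.69 of all probe sets tested, and its correlation with the bright MCM3 probe set was 0.08 over the 12 pools. Which transcripts of MCM3 each probe set detects was not tested.

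PCNA, the clamp, had 9.55, 9.74 and 9.50 in receptive pools of day 7, against 10.97, 10.37 and 10.62 in receptive pools of day 3. In non-receptive endometrium it had 9.32, 9.48 and 9.99 on day 7, against 10.80, 10.40 and 10.48 on day 3. Again the days did not overlap, with a gap of 0.38. The log2 change was -1.01 ± 0.15 (SE, limma adjusted p = 0.0039).

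In the averaged day contrast 7 of the 8 probe sets were called lower and 0 higher (adjusted p under 0.05), against 9.44% of all probe sets called lower and 14.2% called either way. In 7 of 8 all pools of day 7 lay below all pools of day 3, against 5.16% of all probe sets. The median change of the 6 genes was -1.10, beside -0.05 over all probe sets. Array medians were 6.64 to 6.68 on day 7 and 6.68 to 6.76 on day 3. Each of the 7 probe sets kept its call and direction after quantile normalization and after centring arrays on their medians. The log2 change of MCM4 lay between -1.73 and -1.51 over 20 alternatives and that of MCM7 between -0.96 and -0.81. The highest adjusted p of any of the 7 probe sets in any alternative was 0.0397, for MCM5 without the 3 pools of high poly-A spike-in signal described below.

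**Figure D2:**
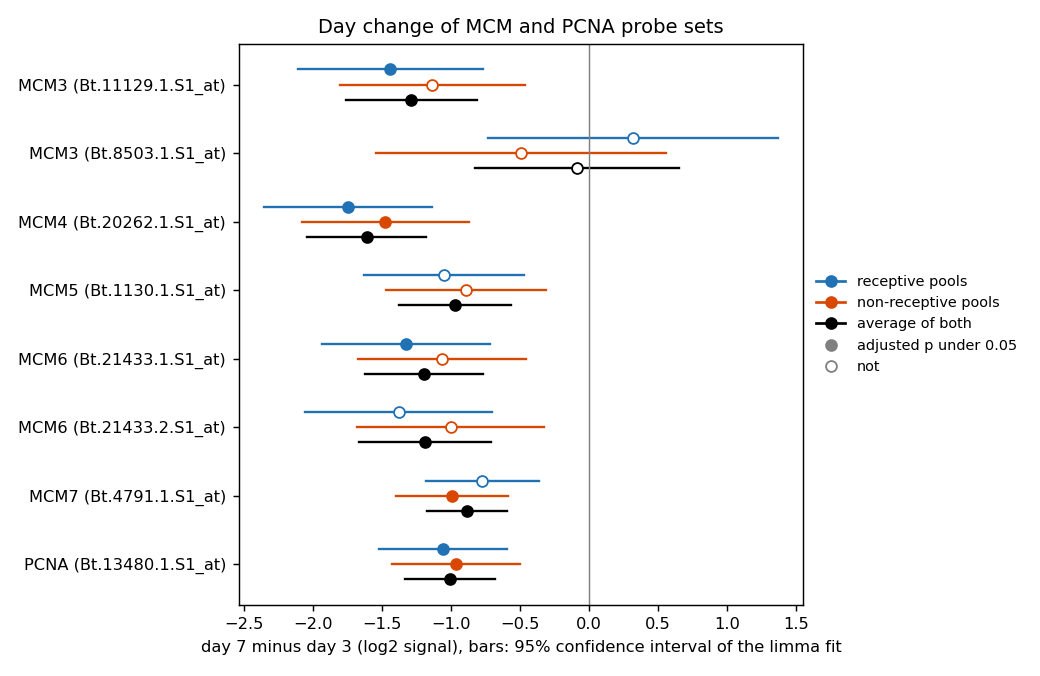
Day 7 minus day 3 difference in log2 signal (x axis) of each MCM and PCNA probe set (y axis) in receptive pools, in non-receptive pools and in the average of both, with the 95% confidence interval of the limma fit as bars. Filled points have an adjusted p under 0.05. All intervals but those of the dim MCM3 probe set lie below 0, with 7 of 8 averages called, 4 changes called in receptive and 3 in non-receptive pools.

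Within receptive endometrium, 4 of 8 probe sets were called lower on day 7 and 0 higher, against 1.37% of all probe sets called lower. These were MCM4 (-1.75, limma adjusted p = 0.0255), PCNA (-1.06, adjusted p = 0.0389), the bright probe set of MCM6 (-1.33, adjusted p = 0.0445) and MCM3 (-1.44, adjusted p = 0.0459). The changes of MCM5 (-1.05, adjusted p = 0.0659) and MCM7 (-0.77, adjusted p = 0.059) and of the dimmer MCM6 probe set (-1.38, adjusted p = 0.0512) did not pass, although their receptive pools did not overlap between the days. All receptive pools of day 7 lay below those of day 3 in 7 of 8 probe sets and in 16.5% of all probe sets. This count of calls rested on single pools of every group. It was 2 without pool 1 of non-receptive day 3, 1 without pool 2 or pool 3 of non-receptive day 3 or pool 1 of non-receptive day 7, and 0 without pool 1 or pool 3 of receptive day 3 or any 1 pool of receptive day 7.

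Within non-receptive endometrium, 3 of 8 probe sets were called lower on day 7 and 0 higher, against 1.66% of all probe sets called lower. These were MCM4 (-1.48, limma adjusted p = 0.0287), MCM7 (-0.99, adjusted p = 0.0287) and PCNA (-0.96, adjusted p = 0.045). MCM3 (-1.14, adjusted p = 0.0777), the bright probe set of MCM6 (-1.07, adjusted p = 0.0712) and MCM5 (-0.89, adjusted p = 0.0976) did not pass. All non-receptive pools of day 7 lay below those of day 3 in 7 of 8 probe sets, against 15.6% of all. The count of calls was 0 without any 1 pool of non-receptive day 3, without pool 1 or pool 2 of non-receptive day 7 or without pool 3 of receptive day 3.

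The second comparison asked whether the genes differed with receptivity before embryo transfer. No probe set of the MCM genes or PCNA was called between receptive and non-receptive endometrium on day 3, on day 7 or in the average of both days by limma, and 0 of the 8 had an unadjusted p under 0.05 in any of the 3. Over all probe sets the called share was 0.0125% on day 3, 0% on day 7 and 0.00416% in the average, with 1264, 1396 and 1773 probe sets at an unadjusted p under 0.05. The values of receptive and non-receptive pools overlapped for all 8 probe sets on both days, where 10.8% of all probe sets did not overlap on day 3 and 9.23% on day 7. Receptive and non-receptive pools also differed in the actin controls described below.

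On day 3 the receptive mean was above the non-receptive mean for 5 of the 6 genes. MCM3 had 9.69 ± 0.36 in receptive and 9.33 ± 0.43 in non-receptive pools (SD, n = 3 each), the largest difference of the 6. MCM7 went the other way, with 10.54 ± 0.16 in receptive and 10.67 ± 0.10 in non-receptive pools (SD, n = 3 each). The differences of the 6 genes lay between -0.13 and 0.36, and their 95% confidence intervals reached from -0.54 to 1.03. The 6 genes moved together from pool to pool, so 5 of 6 are not separate observations. Without pool 1 of receptive day 3 the differences were 0.21 for MCM3, 0.003 for MCM4, 0.05 for MCM5, 0.063 for MCM6 and -0.065 for PCNA. Without pool 1 of non-receptive day 3 they were 0.58, 0.41, 0.45, 0.45 and 0.21 in the same order.

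On day 7 the groups were closer, with differences of receptive minus non-receptive between -0.08 and 0.09 and intervals from -0.69 to 0.73. PCNA had the same mean in both, 9.60 ± 0.13 in receptive and 9.60 ± 0.35 in non-receptive pools (SD, n = 3 each). Differences of the size of the intervals were not detectable with 3 pools per group. Ordered by mean, MCM3, MCM4, MCM5, MCM6 and PCNA were highest in receptive day 3, followed by non-receptive day 3 and then both groups of day 7, whereas MCM7 was highest in non-receptive day 3. Groups of the same day that were neighbours in this order did not pass the test of their difference.

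Whether receptive and non-receptive endometrium differed in their day change was tested by the interaction, in which 0 of 8 probe sets were called by limma and 0 had an unadjusted p under 0.05, against 0% of all probe sets called and 813 at an unadjusted p under 0.05. The change in receptive minus that in non-receptive pools lay between -0.30 for MCM3 and 0.22 for MCM7, with intervals from -1.25 to 0.80. Calls of MCM3 and MCM6 in receptive pools alone and of MCM7 in non-receptive pools alone are therefore no evidence that their day changes differed between the groups.

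The 6 genes moved together from pool to pool. Correlations between their brightest probe sets were 0.925 to 0.993 over the 12 pools (15 pairs), and 0.667 to 0.966 after the mean of each group had been subtracted, given as a description, since all values of a pool share 1 array. A score per pool, the mean over the 6 genes of the signal minus the gene's mean over all pools, was -0.75, -0.34 and -0.63 in receptive pools of day 7, against 0.96, 0.35 and 0.67 in receptive pools of day 3. It was -0.84, -0.74 and -0.17 in non-receptive pools of day 7, against 0.87, 0.26 and 0.38 in non-receptive pools of day 3. The pools therefore spread widely within a day. Pool 1 of both day 3 groups had the highest signal of that day, receptive pool 1 in 4 genes and non-receptive pool 1 in 2. On day 7, non-receptive pool 3 was highest in 4 genes and receptive pool 2 in the other 2.

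**Figure D3:**
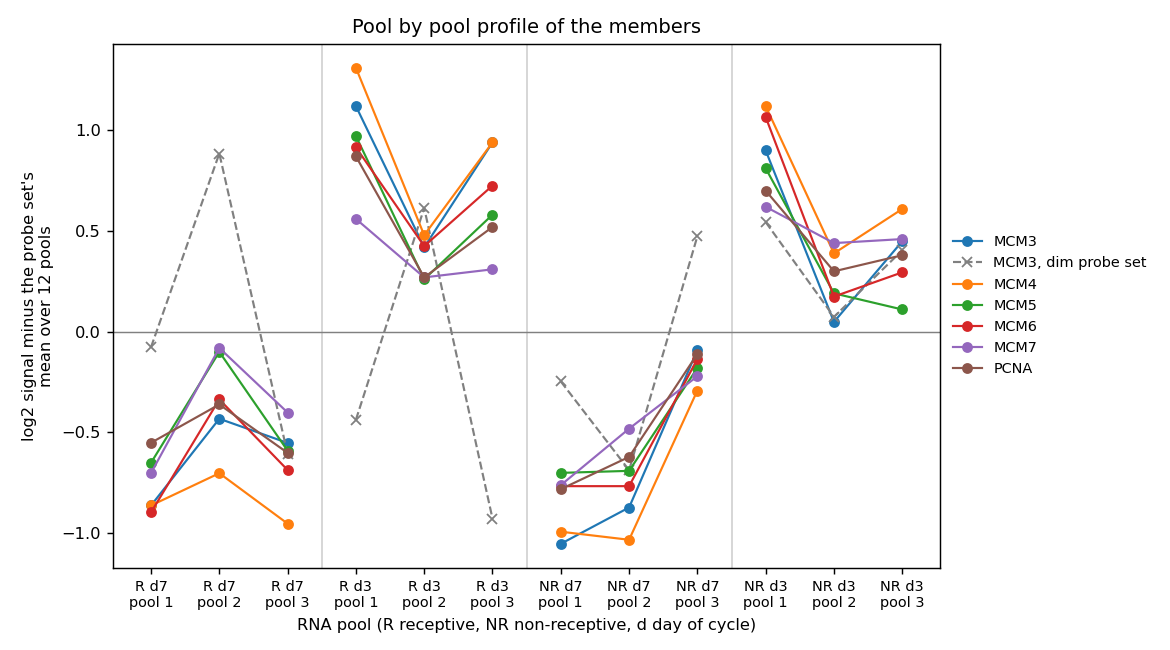
Log2 signal minus the probe set's mean over 12 pools (y axis) in each pool (x axis) for the brightest probe set of MCM3, MCM4, MCM5, MCM6, MCM7 and PCNA (solid lines) and the dim MCM3 probe set (dashed line). Lines join pools of 1 group, whose order has no meaning. The 6 solid lines mostly, though not at every step, rise and fall together. They lie below 0 in every pool of day 7 and above 0 in every pool of day 3, while the dashed line lies on both sides of 0 on either day.

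Signals of cell type markers and of array controls are given here for the same pools, whether or not they moved with the day. Summed signals of markers (log2) were at 14.47 to 14.94 on day 7 and 14.48 to 14.83 on day 3 for glandular and luminal epithelium (7 of 7 markers measured). Ranges were 11.28 to 12.88 on day 7 and 11.59 to 14.35 on day 3 for stromal fibroblasts (8 of 8), 8.17 to 8.89 on day 7 and 8.81 to 10.77 on day 3 for endothelium (6 of 6), and 8.89 to 9.31 on day 7 and 9.33 to 9.78 on day 3 for T and NK cells (8 of 8). By brightest probe set, 2 of 8 stromal, 3 of 6 endothelial and 2 of 8 T and NK markers were called lower on day 7 and 0 higher. VIM (-0.185) and PDGFRA (0.04) of the stromal list and VWF (0.325) and KDR (-0.04) of the endothelial list were not called. A sum mostly follows its brightest markers, so these sums are not read as changes in the cell types. Neutrophil markers (4 of 6) were at 11.35 to 13.72 on day 7 and 7.73 to 10.34 on day 3. Of the 4, S100A12, S100A8 and S100A9 rose by 3.70, 3.33 and 1.53, while FCGR3A had 0.007 (limma adjusted p = 0.973). The neutrophil sum is therefore not read as a change in neutrophils. Markers of stratified squamous epithelium (4 of 6) were at 8.98 to 11.46 on day 7 and 7.85 to 8.59 on day 3. The sums of macrophage markers (4 of 6) and of B and plasma cell markers (3 of 5) and the single measured marker of ciliated epithelium overlapped between days. Within them, CD68 of the macrophage list rose by 2.17 (limma adjusted p = 0.0103). MS4A1 of the B and plasma cell list fell by 0.60 (adjusted p = 0.0116). The remaining markers of both lists were not called by their brightest probe set. No measured marker was at 0 in any pool. The part of cell composition in the day changes was not tested. Signals of the poly-A spike-in controls stood apart in the pools numbered 2 of receptive day 3 and of both non-receptive groups, with means of 7.40 to 7.54 where the remaining 9 pools had 6.33 to 6.91. Among the 9, pools of day 3 had 6.58 to 6.91 and pools of day 7 had 6.33 to 6.61. The part of this difference in the day changes was not tested. Without the 3 pools that stood apart, the 7 probe sets stayed called in the averaged day contrast, and 0 were called within receptive or within non-receptive endometrium. The gap of 3' over 5' actin controls was 3.11 in receptive day 3 pool 1 and 0.49 in non-receptive day 3 pool 1, the pools with the highest scores, and its part in the scores was not tested. On day 3 this gap was 1.05 to 3.11 in receptive and 0.48 to 0.93 in non-receptive pools. On day 7 it was 0.82 to 1.25 in receptive and 0.02 to 0.63 in non-receptive pools. It thus separated the receptivity groups on both days, and its part in comparisons between them was not tested.

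The third comparison asked whether the genes fell by unequal amounts. The difference between the signals of 2 genes was taken within each pool, which removes what is common to an array, and was tested by exactly permuting the labels day 7 and day 3 among the pools of 1 receptivity state at a time. There were 15 pairs, and the smallest p that the 400 assignments allow is 0.005. The signal of MCM4 fell further than that of each of the 5 other genes, with 1 probe set standing for each gene. Probe sets of 1 gene can differ in their change, as those of MCM3 did (-1.29 and -0.09) and those of MCM6 did not (-1.20 and -1.19). Whether the unequal changes lie in the transcripts or in how the probe sets respond was not tested. Relative to MCM7 its additional log2 change was -0.73, relative to MCM5 -0.64, relative to PCNA -0.60 and relative to MCM6 -0.42 (exact permutation p = 0.005 and adjusted p = 0.01875 each). MCM3 changed by 0.32 less than MCM4 (exact permutation p = 0.01, adjusted p = 0.03).

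The within-pool difference of MCM4 minus PCNA was -1.43 to -1.20 on day 7 and -0.93 to -0.58 on day 3, and that of MCM4 minus MCM5 was 1.05 to 1.54 on day 7 and 1.85 to 2.15 on day 3. Against MCM6 it was -0.33 to 0.07 on day 7 and 0.09 to 0.43 on day 3, and against MCM7 -1.70 to -1.15 on day 7 and -1.13 to -0.33 on day 3. These 4 differences did not overlap between the days, and they passed whichever single pool was left out. MCM4 against MCM3 overlapped and passed in 8 of the 12 repeats with 1 pool left out. The sixth pair that passed was MCM5 and MCM6, with MCM5 falling by 0.23 less (exact permutation p = 0.015, adjusted p = 0.0375), and it passed in 4 of 12 repeats.

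Among the 9 other pairs the differences in change lay between -0.41, for MCM3 minus MCM7 (exact permutation p = 0.05, adjusted p = 0.0833), and 0.13, for MCM7 minus PCNA (exact permutation p = 0.25, adjusted p = 0.3125). That they did not pass does not show equal changes. Without pool 2 of non-receptive day 3, 11 of 15 pairs passed.

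The genes that supply the helicase and work beside it were read from lists for each step of replication, using the brightest probe set of a gene, and their counts stand beside the 9.44% of all probe sets called lower. That share is over all 24016 probe sets, dim ones and 10638 without a symbol included. The lists hold only named genes by their brightest probe set, so the counts and this share have unlike bases. In origin recognition and licensing, 5 of 10 measured genes (of 13) fell and 0 rose in the averaged day contrast, with a median change of -0.52 beside -0.05 over all probe sets. ORC5, a subunit of the origin recognition complex, fell by 0.65 on the log2 scale (limma adjusted p = 0.0039), with 6.54 to 6.90 on day 7 and 7.24 to 7.56 on day 3. CDC6 and CDT1, which bring the helicase to the origin, fell by 0.85 (adjusted p = 0.00707) and by 0.97 (adjusted p = 0.0177). ORC1 had the largest change of the list, -1.89 (adjusted p = 0.0166), at a low signal of 3.17 to 4.99 on day 7 and 4.32 to 6.55 on day 3, which overlap. GMNN, the inhibitor of CDT1, had -0.78 (adjusted p = 0.0642), and MCMBP, which binds free MCM proteins, 0.02 (adjusted p = 0.934).

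Of the helicase activators 1 of 7 measured genes (of 13) fell and 0 rose, with a median of -0.28. This is close to the 9.44% of all probe sets called lower, so nothing is read from the count. The gene was CDC45, the factor that travels with the helicase, with a mean of 5.04 ± 0.51 on day 7 and 6.12 ± 0.37 on day 3 (SD, n = 6 each, log2 change -1.08, limma adjusted p = 0.0144). The probe sets of the GINS subunit GINS3 disagreed, with -0.28 (adjusted p = 0.0847) for the brightest and -0.51 (adjusted p = 0.0272) for the other. DBF4, the activator of the CDC7 kinase, had -0.35 (adjusted p = 0.21). CDC7 itself was listed at 0 in 1 pool of day 7 and is given no fold. The count of 1 was 0 without the 3 pools of high spike-in signal and 2 without pool 2 of non-receptive day 7 or pool 3 of receptive day 7.

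Of the polymerase and primase subunits, 6 of 11 measured genes (of 12) fell and 1 rose, with a median of -0.63. POLA2, of the polymerase that starts each new strand, fell to 6.25 ± 0.23 on day 7, against 7.21 ± 0.26 on day 3 (SD, n = 6 each, limma adjusted p = 0.0038). POLD3, an accessory subunit of the lagging strand polymerase, fell by 0.79 (adjusted p = 0.00433), and POLE2, of the leading strand polymerase, by 0.92 (adjusted p = 0.00746). The exception was POLD4, the smallest subunit of polymerase delta, known from human cells to be degraded during S phase and after DNA damage. It had 7.90 to 8.43 on day 7 and 6.71 to 7.14 on day 3, a rise of 1.22 (adjusted p = 0.00107), and was called in receptive (adjusted p = 0.0186) and in non-receptive pools (adjusted p = 0.0138) by themselves.

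Clamp loading, lagging strand and single-strand binding genes fell in 8 of 11 measured cases (of 14) and rose in 0, with a median of -0.36. The DNA ligase LIG1, which seals Okazaki fragments, fell to 6.52 ± 0.20 on day 7, against 7.50 ± 0.11 on day 3 (SD, n = 6 each, limma adjusted p = 0.00107). CHTF18, of an alternative clamp loader, fell by 1.22 (adjusted p = 0.00307), the flap nuclease FEN1 fell by 1.04 (adjusted p = 0.00665), and RFC5, of the standard clamp loader, fell by 0.60 (adjusted p = 0.00843). The 3 subunits of the single-strand binding protein RPA changed less, with -0.36 for RPA1, -0.28 for RPA2 and -0.33 for RPA3 (adjusted p = 0.0195, 0.038 and 0.0303). The count of 8 was 5 after median centring of the arrays, without pool 1 of non-receptive day 3 and without pool 3 of receptive day 3.

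Among proteins that bind PCNA, 6 of 7 measured genes (of 11) fell and 0 rose, with a median of -0.93. The uracil-DNA glycosylase UNG fell to 8.20 ± 0.27 on day 7, against 9.33 ± 0.17 on day 3 (SD, n = 6 each, limma adjusted p = 0.00204). The chromatin assembly subunits CHAF1A and CHAF1B changed by -0.93 (adjusted p = 0.00733) and -1.02 (adjusted p = 0.00684), and PCLAF, the PCNA-associated factor of S phase, by -1.53 (adjusted p = 0.00827). The single gene that did not fall was CDKN1A, the p21 inhibitor that blocks PCNA and cyclin-dependent kinases, with 0.35 (adjusted p = 0.412) and overlapping values of 7.50 to 9.58 on day 7 and 7.97 to 8.82 on day 3.

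For nucleotide supply 4 of 7 measured genes (of 10) fell and 0 rose, with a median of -0.48. RRM2, the S phase subunit of ribonucleotide reductase, fell by 1.50 (limma adjusted p = 0.00715), its partner RRM1 by 0.74 (adjusted p = 0.0325), thymidylate synthase TYMS by 1.11 (adjusted p = 0.0074) and the dUTPase DUT by 0.48 (adjusted p = 0.0233). The count was 2 without pool 1 of non-receptive day 3, without pool 1 of non-receptive day 7 and without the 3 pools of high spike-in signal.

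Among E2F and G1/S control genes, 8 of 17 measured (of 24) fell and 0 rose, with a median of -0.35. CDK2, the kinase that drives entry into S phase, fell to 6.95 ± 0.05 on day 7, against 7.86 ± 0.16 on day 3 (SD, n = 6 each, limma adjusted p = 0.000956), and its partners CCNE2 and CCNE1 by 1.66 (adjusted p = 0.00259) and 0.44 (adjusted p = 0.018). CCND1, the cyclin that answers to growth signals, fell by 0.57 (adjusted p = 0.00579), while CCND2 and CCND3 had 0.18 (adjusted p = 0.425) and 0.09 (adjusted p = 0.69). E2F1, an activator of the MCM genes, was at 3.72 to 4.60 on day 7 and 4.44 to 4.87 on day 3, with a log2 difference of -0.35 that did not pass (adjusted p = 0.137). The count of 8 was 5 without pool 1 of non-receptive day 3 and without pool 3 of receptive day 3, and 3 without the 3 pools of high spike-in signal.

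Mitosis genes had a median of -0.65, and 3 of 15 measured (of 22) fell and 0 rose, against 9.44% of all probe sets called lower. The spindle checkpoint kinases BUB1 and BUB1B changed by -1.40 (limma adjusted p = 0.0317) and -1.56 (adjusted p = 0.0311), and AURKB by -0.65 (adjusted p = 0.0275). CENPF, a kinetochore protein, had -1.20 and did not pass (adjusted p = 0.0567). CCNB1, the mitotic cyclin, had 8.16 to 9.07 on day 7 and 7.08 to 9.36 on day 3 and a log2 difference of 0.38 (adjusted p = 0.547). Day 7 pools spread widely for these genes, with SDs of 0.74 for BUB1 and 0.86 for BUB1B (n = 6). The count of 3 was 0 or 1 without any 1 pool of non-receptive day 3, without pool 1 or pool 3 of receptive day 3, without pool 1 or pool 2 of non-receptive day 7 and without pool 2 or pool 3 of receptive day 7, 8 without pool 3 of non-receptive day 7, and 0 without the 3 pools of high spike-in signal.

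Further probe sets of some named genes missed the threshold that the brightest passed. The second probe sets of CDT1, CHTF18, RFC5, RPA2, TYMS, DUT, CCNE1 and BUB1 had log2 differences between -0.85 for BUB1 and -0.09 for TYMS and were not called, nor was 1 of the 2 other probe sets of ORC5, POLD3 and LIG1. Other probe sets passed with a larger change than the brightest for CDC6 (-1.855, limma adjusted p = 0.00786) and AURKB (-1.545, adjusted p = 0.016). They passed with a smaller change for ORC5 (-0.33), POLA2 (-0.42), POLD3 (-0.75) and LIG1 (-0.91).

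**Figure D4:**
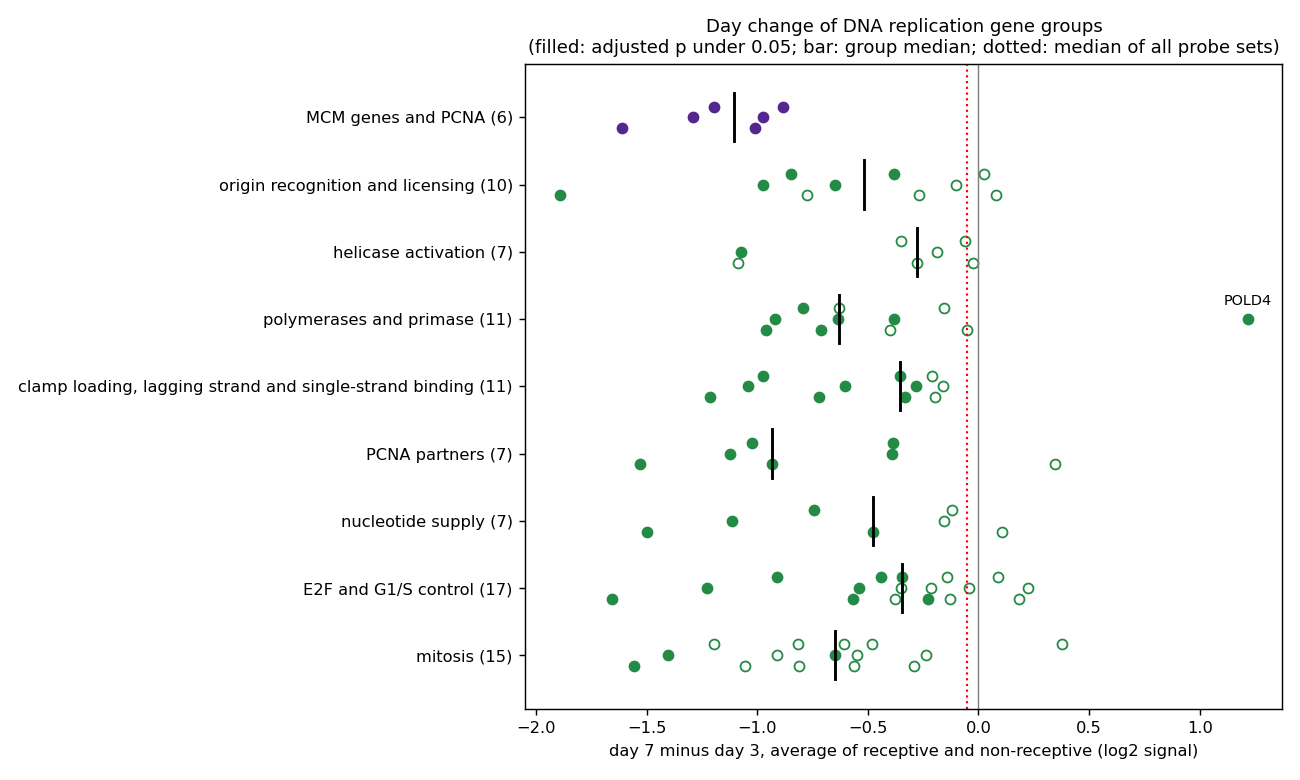
Day 7 minus day 3 difference in log2 signal, averaged over receptive and non-receptive pools (x axis), of the genes of each replication list (y axis, number of genes measured in parentheses). Filled points have an adjusted p under 0.05, black bars are list medians and the dotted line is the median of all probe sets at -0.05. The medians lie between -1.10 for the MCM genes and PCNA and -0.28 for helicase activation, and POLD4 at 1.22 is the single filled point above 0.

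Other genes were ranked by the correlation of their signal over the 12 pools with the mean of the 6 helicase and clamp genes, among 12669 named probe sets of other genes with no value at 0. The highest were UHRF1 (r = 0.988), CHEK1 (0.984), DNAJC9 (0.983), DNMT1 (0.981) and NASP (0.981), and with group means subtracted the same probe sets had r between 0.887 and 0.955. UHRF1 and DNMT1 copy DNA methylation onto the new strand, CHEK1 is the checkpoint kinase of stalled forks, and NASP and DNAJC9 are chaperones of histones. CHEK1 had 6.54 to 7.71 on day 7 and 8.09 to 8.89 on day 3, a log2 change of -1.53 (limma adjusted p = 0.00413). DNAJC9 had 6.43 to 6.94 on day 7 and 7.59 to 8.35 on day 3 (log2 change -1.24, adjusted p = 0.00237), and NASP 9.64 to 10.08 on day 7 and 10.25 to 10.79 on day 3 (log2 change -0.64, adjusted p = 0.00887). All 5 were thus separated by day like the helicase genes, a choice made by the correlation itself, so their changes are a description.

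Genes next to the members in the RefSeq annotation of the ARS-UCD2.0 assembly were read as a check on neighbourhood, where a probe set with their symbol was measured. PRKDC, beside MCM4 and known in human cells to share its promoter region, changed by -0.59 (limma adjusted p = 0.0248), less than MCM4 with -1.61, and UBE2V2 on its other side had 0.25 (adjusted p = 0.104). HMOX1, the haem oxygenase gene beside MCM5, rose by 1.64 (adjusted p = 0.008) where MCM5 fell by 0.97. The neighbours of MCM7, AP4M1 and COPS6, had -0.10 (adjusted p = 0.471) and -0.17 (adjusted p = 0.224), and those of PCNA, TMEM230 and CDS2, had -0.13 (adjusted p = 0.273) and -0.11 (adjusted p = 0.429). TPRA1, beside MCM2, had -0.09 (adjusted p = 0.686).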

How the data were processed

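The authors deposited log2 signals of 24128 probe sets, made per the submitters' processing notes with GCOS 1.1.1, PLIER and Affymetrix Expression Console; no source used here states how arrays were scaled. After removal of 112 control probe sets, no further normalization was applied. Array medians lay between 6.64 and 6.76, and the number of arrays limits the precision. No pair of arrays was identical. The linear model held 4 group means over the 12 arrays (lmFit and eBayes of limma 3.58.1 under R 4.3.3). In it, 7 contrasts were tested two-sided, and p-values were adjusted by Benjamini-Hochberg over all 24016 probe sets, with calls at an adjusted p under 0.05. The fit was tested on simulated data. For a gene with several probe sets the one with the highest mean signal was used. In each list up to 4 genes with the smallest p in the averaged day contrast were named, and others named were chosen after their values were seen. Pairs of genes were compared by two-sided exact permutation. The members and lists were chosen with earlier results of these data known. Alternatives were leaving out each pool, pool number as a block, 2 scalings, filters on low signals and on values at 0, another variance prior, fits with only the compared groups, array weights and, chosen after seeing the data, leaving out the 3 pools of high spike-in signal.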

Additional observations from a re-analysis of the deposited data

How the results depend on the processing

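In the averaged day contrast, the 7 probe sets called lower kept their direction and call in every alternative that held them, 6 or 7 in number because the filter on low signals removes the dimmer MCM6 probe set, and no member was called between receptivity groups or for the interaction in any alternative. The counts within a receptivity group did depend on the processing. Within receptive endometrium, 4 in the main setting, the count was 2 after quantile normalization, 1 after median centring, 7 with a trended and robust variance prior, 0 with only the compared groups in the fit and 0 without the 3 pools of high spike-in signal, an alternative chosen after seeing the data, and 0 to 4 with 1 pool left out. Within non-receptive endometrium, 3 in the main setting, it was 6 of 6 after the filter on low signals, 5 with the trended and robust prior, 7 with array weights, 0 with only the compared groups, 0 without the 3 pools and 0 to 3 with 1 pool left out.

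With the pool number as a replicate block the count was 1 within receptive and 1 within non-receptive endometrium, and the block changed no other count beyond 1.5 times. Pools of the same number did not deviate together (r between -0.443 and 0.384 over 18 pairs, mean 0.012 against -0.007 for other numbers), and 4 of 12 pools correlated best with their own number. These pairs ran across all groups, also between receptivity states. Whether same-numbered pools of both days share heifers within a receptivity state was therefore not tested. The main fit does not take the numbers to pair the samples.

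List counts moved as follows: clamp loading 5 after median centring and 5 to 8 with 1 pool left out, E2F and G1/S control 5 after the filter on low signals, 3 without the 3 pools and 5 to 8 with 1 pool left out, and mitosis 5 after the filter, 6 with array weights, 0 without the 3 pools and 0 to 8 with 1 pool left out. Helicase activation gave 3 with array weights, 0 without the 3 pools and 1 to 2 with 1 pool left out, and nucleotide supply 2 without the 3 pools and 2 to 4 with 1 pool left out. Of the 15 gene pairs, 6 passed in the main setting, 5 with the mean over all probe sets of a gene, and 4 to 11 with 1 pool left out. That mean takes in the dim MCM3 probe set. With it MCM3 minus MCM5, MCM6, MCM7 and PCNA changed sign, to 0.28, 0.51, 0.195 and 0.32, and did not pass. MCM3 minus MCM4 became 0.92, and MCM5 and MCM6 no longer passed (exact permutation adjusted p = 0.131). The place of MCM3 among the falls thus depended on its probe set.

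Among the contrasts of single member probe sets, a change of direction occurred in 18 results, 0 of which were called. With array weights these were the dim MCM3 probe set in the averaged day contrast (0.065), receptive minus non-receptive on day 7 for MCM4 (0.047) and the bright and dimmer MCM6 probe sets (0.050 and 0.11), the same averaged over days for MCM7 (0.036), and the interaction for MCM5 (0.11), MCM6 (0.031) and PCNA (0.13). Without the 3 pools they were the dim MCM3 probe set in the averaged day contrast (0.19), receptive minus non-receptive on day 7 for the bright and dim MCM3 probe sets (-0.043 and -0.047) and MCM5 (-0.0067), and the same averaged over days for the bright MCM6 probe set (-0.024). With 1 pool left out, the dim MCM3 probe set lay between -0.29 and 0.13 in the averaged and between -0.092 and 0.75 in the receptive day contrast. Receptive minus non-receptive on day 7 lay between -0.13 and 0.35 for the bright and between -0.19 and 0.56 for the dim MCM3 probe set, -0.20 and 0.17 for MCM4, -0.097 and 0.25 for MCM5, -0.235 and 0.13 for the bright and -0.27 and 0.14 for the dimmer MCM6 probe set, and -0.063 and 0.25 for MCM7. On day 3 it lay between -0.065 and 0.235 for PCNA. Averaged over days it lay between -0.032 and 0.19 for MCM4, -0.0375 and 0.185 for the bright and -0.034 and 0.23 for the dimmer MCM6 probe set, -0.095 and 0.06 for MCM7 and -0.0325 and 0.145 for PCNA, and the interaction between -0.38 and 0.027 for MCM5 and -0.235 and 0.10 for PCNA. The cause of these changes was not tested.

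The median day change of all probe sets was -0.05 in the deposited values, 0.01 after median centring and -0.003 after quantile normalization. There were 1144 probe sets called higher and 2268 lower as deposited, against 1601 and 1562 after median centring and 1430 and 1814 after quantile normalization. Signals of different probe sets do not rank transcripts, the dim MCM3 probe set lies near the low end of the array's signals, and 3 pools per group limit what a comparison between receptivity groups can detect.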
